A study of Mus musculus with 21 samples.

Results

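The genes described here encode the proteins of the cytosolic ribosome, measured in cells sorted from mouse medulloblastomas. They were chosen by name: every probe set of the array whose platform symbol was Rpl or Rps followed by a digit, with the Rps6k kinases and pseudogenes left out. The rule found 102 of the 45101 probe sets, which belonged to 47 genes. Of these, 94 probe sets and 43 genes passed a filter on dim signals and were tested, among 12367 genes tested in all. Rps19bp1 and Rpl7l1 came in through their symbols and were set apart. The other 41 of the 43 tested genes were counted as ribosomal proteins, 20 of the small and 21 of the large subunit. Near relatives such as Rpl22l1 and Rps27l are among these 41. Rpl39l, Rpl3l, Rps16 and Rps4l lay below the filter. Rpl3, Rpl5, Rpl10, Rpl10l, Rpl36a and Rpl36al have no probe set of their own here.

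The data come from 21 Affymetrix arrays (Mouse Genome 430 2.0). All samples were tumour cells from the cerebellum of Patched mice, sorted by the surface carbohydrate CD15. There were 4 groups. Tumours titled conventional Patched gave 6 arrays of CD15 positive and 6 of CD15 negative cells, and tumours titled math-1GFP gave 4 and 5. Patched (Ptch1) holds back the Hedgehog pathway, which drives the growth of granule neuron precursors, and mice that lose it can develop medulloblastoma. Math1, also named Atoh1, is expressed by those precursors, and GFP is a fluorescent protein. The labels give no promoter, allele, age, strain or number of animals, and do not say how the math-1GFP tumours were made. The descriptions of the math-1GFP samples call those tumours conventional as well, and the titles were followed. Conventional titles end in le1 and math-1GFP titles in le2, so the tumour model and whatever that ending marks cannot be told apart. No label states that the samples of one group came from different animals. The p-values then reflect only how these samples varied, which may be technical.

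A ribosome has a small subunit, which reads the mRNA, and a large subunit, which joins amino acids and holds the tunnel through which the new chain leaves. Each ribosomal protein is needed in about equal amount, and the genes are transcribed at a high rate in nearly every cell, more so in growing cells. Their mRNAs carry a run of pyrimidines at the 5′ end, through which mTOR signalling sets their translation, a step that an expression array does not measure. Transcription factors of the Myc family, among them N-Myc, which Hedgehog signalling induces in granule neuron precursors, raise the expression of genes for ribosome production.

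The signals were used as deposited, on the scale log2(signal + 32), with errors given as standard error (SE) or standard deviation (SD) between arrays. The trimmed mean of signal was 150.0 on the array where it was computed, and the arrays were taken to share that scale. The shape of the distribution differed between them. The 99th percentile of signal averaged 4955 and 4403 in the CD15 positive and CD15 negative arrays of conventional tumours. In those of math-1GFP tumours it averaged 3828 and 3622. Each result is therefore given also after quantile normalization, which gives every array the same set of values. The 10 granule neuron lineage markers were all measured, with a mean log2 value between 9.76 and 10.69 on every array. In CD15 positive cells of conventional tumours, 16 of 17 measured mitotic markers were called higher at an adjusted p of 0.05 (median log2 fold change 0.82; 3.05% of all genes were called higher) and 10 of 11 measured neuronal markers were called lower (median -1.13; 5.09% of all genes). Between the models, 10 of 10 measured microglial and macrophage markers were called lower in math-1GFP tumours (median -1.39; 20.5% of all genes). In bulk RNA, fewer cells of a type and less RNA per cell cannot be told apart.

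The ribosomal protein genes stood near the top of every array, with a median rank between the 99.5th and 99.7th percentile of the genes tested. The mean log2 value of the 43 genes was 12.70 ± 0.22 (SD, n = 6) in conventional CD15 positive cells, 12.38 ± 0.21 (n = 6) in conventional CD15 negative cells, 12.05 ± 0.11 (n = 4) in math-1GFP CD15 positive cells and 11.91 ± 0.25 (n = 5) in math-1GFP CD15 negative cells. As a share of an array's total signal, their 43 probe sets held 4.10 ± 0.61%, 3.47 ± 0.40%, 2.93 ± 0.18% and 2.68 ± 0.42%, in the same order of groups. Conventional arrays numbered 2 to 6 by title form 5 pairs, and in each the CD15 positive array had the higher mean, by 0.097 to 0.73. The mean of the 169 other genes with a mean log2 value of 12 or more was also higher there, by 0.071 to 0.40. After quantile normalization the group means lay closer: 12.43 ± 0.04, 12.36 ± 0.06, 12.27 ± 0.07 and 12.25 ± 0.07. The difference within the numbered pairs was then 0.055 to 0.11, still positive in 5 of 5. This mean weighs dim and bright genes alike. After quantile normalization the median CD15 log2 fold change in conventional tumours was 0.02 for the 31 genes with a mean log2 value of 13 or more. For the 7 genes below 9 it was 0.16. The unnumbered CD15 positive array lay at 13.01 and the unnumbered CD15 negative array at 12.74 as deposited, and at 12.46 and 12.47 after quantile normalization.

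**Figure D1:**
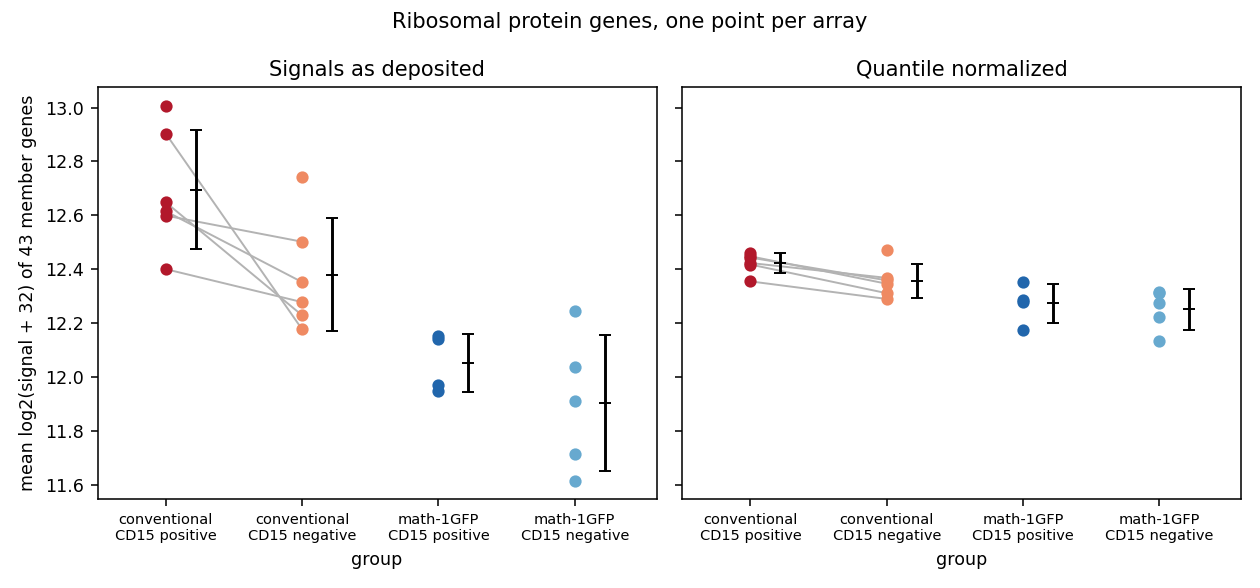
Mean log2(signal + 32) of the 43 tested genes (y axis), one point per array, in the 4 groups (x axis), with the group mean and SD beside the points and lines joining arrays of the same title number. As deposited the conventional CD15 positive arrays reach 13.01 and the math-1GFP CD15 negative arrays go down to 11.62, while after quantile normalization all arrays lie between 12.14 and 12.47.

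Within conventional tumours, cells with and without CD15 on their surface were compared first. Of the 43 genes, 42 had a higher mean in CD15 positive cells, with a median log2 fold change of 0.34 against -0.02 over all genes tested. Only Rpl22 passed an adjusted p of 0.05 (limma, Benjamini-Hochberg over 12367 genes); 24 (55.8%) had an unadjusted p under 0.05, against 22.2% of all genes. Over all genes, 8.13% were called in this comparison, 3.05% higher and 5.09% lower. Centring each array on its all-gene median turned the calls over all genes from 377 higher and 629 lower into 626 higher and 419 lower, and called 6 of the 43 higher. After quantile normalization 6.52% of all genes were called, 2.63% higher and 3.89% lower. Of the 43 genes 0 were then called and 0 had an unadjusted p under 0.05 in the limma fit, against 20.2% of all genes, 34 were above 0 and the median was 0.043.

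Rpl22 is a protein of the large subunit near the exit of the tunnel. Its signal in conventional CD15 positive arrays was 12709 at the lowest, 13093 at the median and 18274 at the highest, and in CD15 negative arrays 9375, 10162 and 13797. The unnumbered CD15 negative array, at 13797, was above 4 of 6 CD15 positive arrays, so the groups overlapped, while the CD15 positive array was higher in 5 of 5 numbered pairs. The log2 fold change was 0.42 ± 0.12 (SE), a 1.34-fold difference, with an adjusted p of 0.036. Without CD15 positive array 1 (the unnumbered) or 2, or without CD15 negative array 2, 3, 4 or 5, the adjusted p lay between 0.065 and 0.089. It was 0.056 within the arrays numbered 2 to 5, 0.81 within the unnumbered arrays and number 6, and 0.53 after quantile normalization (log2 fold change 0.10 ± 0.08).

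Rps27l and Rpl22l1 are close relatives of Rps27 and Rpl22; Rps27l is known as a p53 target. Rps27l measured 3532 at the lowest, 4847 at the median and 6106 at the highest in conventional CD15 positive arrays, against 2817, 3848 and 4468 in CD15 negative arrays. Its log2 fold change was 0.41 ± 0.13 (limma adjusted p = 0.068), and with the title number as a block 0.45 (adjusted p = 0.012). In this paired fit 2 of the 43 genes were called, Rpl22 being the other, beside 452 higher and 783 lower of all 12367 genes. After quantile normalization Rps27l had 0.24 ± 0.12 (adjusted p = 0.29), and under either scaling 5 of 5 numbered pairs had more of it in the CD15 positive array. Rpl22l1 measured 5826, 8066 and 8588 in CD15 positive arrays and 4282, 5828 and 6957 in CD15 negative arrays. Its log2 fold change was 0.42 ± 0.15 (adjusted p = 0.090), and 0.17 ± 0.13 (adjusted p = 0.49) after quantile normalization. The groups overlapped for both genes.

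The genes of the small subunit had a median log2 fold change of 0.36 (20 genes, 19 above 0) and those of the large subunit 0.33 (21 genes, 21 above 0). The 6 tested genes of the mRNA channel and decoding site (Rps2, Rps3, Rps14, Rps15, Rps26 and Rps28) ran from 0.30 to 0.40. Rps2 measured 12341, 15140 and 21753 (lowest, median, highest) in conventional CD15 positive arrays and 10487, 12150 and 15724 in CD15 negative arrays, which overlapped. Its log2 fold change of 0.40 ± 0.16 had an adjusted p of 0.13. Rps19, whose loss is the most frequent cause of Diamond-Blackfan anaemia, measured 10206, 12217 and 17569 against 8421, 9786 and 12172, a log2 fold change of 0.42 ± 0.14 (limma adjusted p = 0.068). Rpl8 and Rpl4, of the core of the large subunit, had log2 fold changes of 0.36 ± 0.12 and 0.37 ± 0.16 (adjusted p = 0.066 and 0.16). Rpl11, which binds the p53 regulator Mdm2 as part of the 5S particle, had 0.31 ± 0.11 (adjusted p = 0.10).

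**Figure D2:**
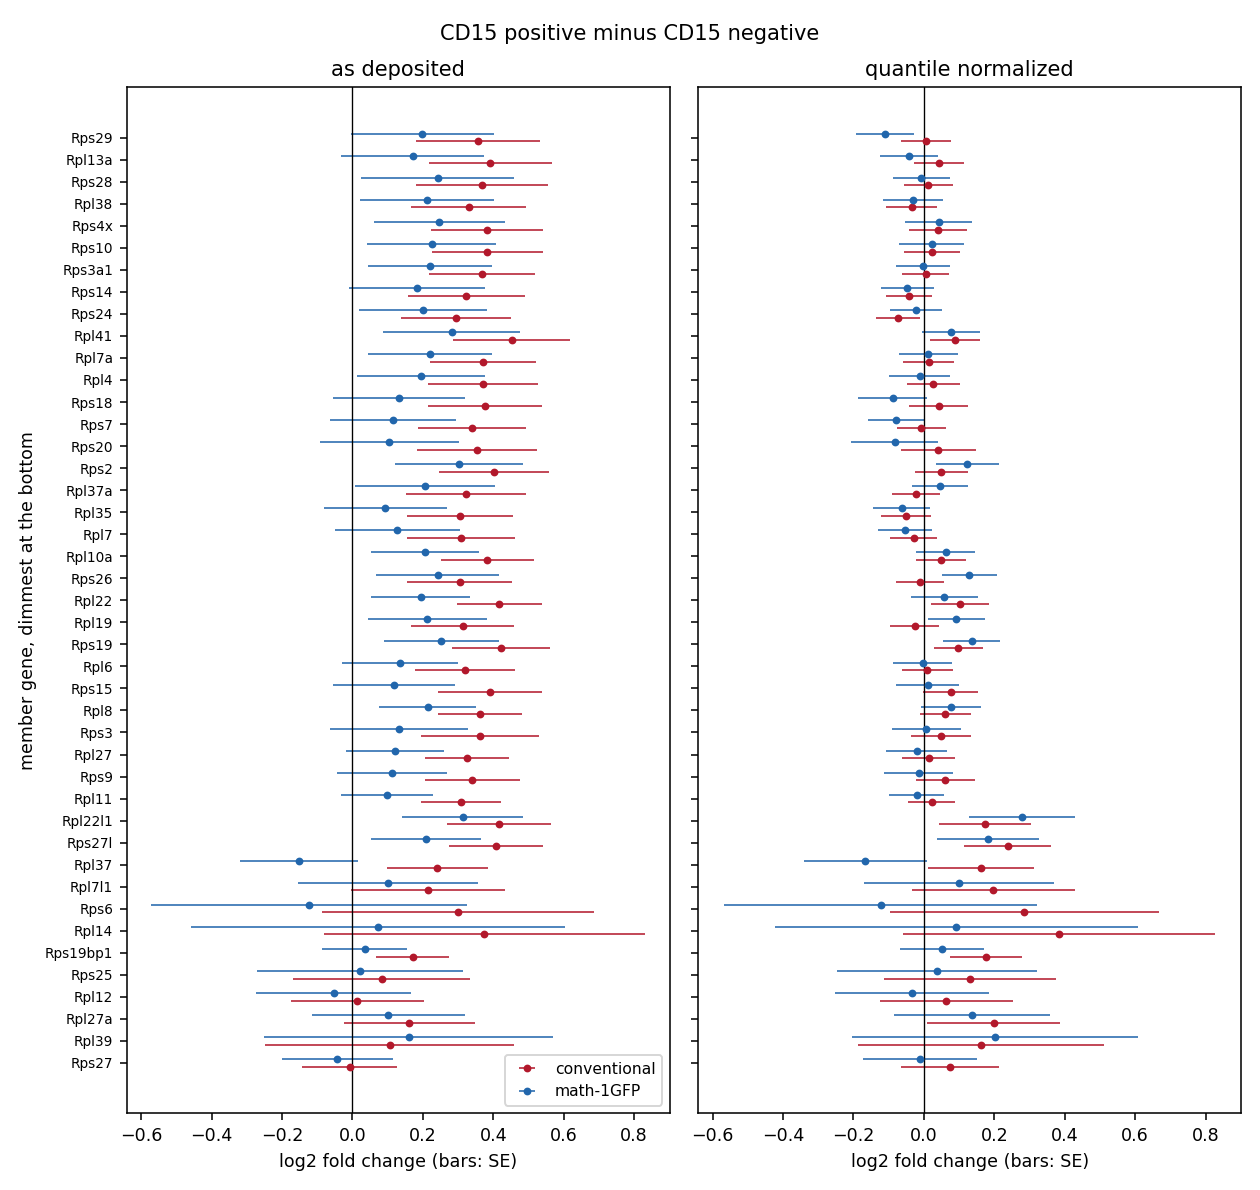
Log2 fold change of CD15 positive over CD15 negative cells (x axis; bars are SE) for each of the 43 tested genes (y axis, brightest at the top), in conventional and math-1GFP tumours. As deposited the conventional differences of the bright genes lie in a narrow band around 0.36, and after quantile normalization around 0.02.

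The shift followed the brightness of the probe sets. The 32 genes with a mean log2 value of 12 or more ran from 0.29 to 0.45 (median 0.36), and the 11 dimmer genes from -0.01 to 0.41 (median 0.17). Rps27, with a mean log2 value of 7.01 for its probe set, had a log2 fold change of -0.01 ± 0.14, and its direction changed with the scaling. On each array the bright genes deviated from their group means together: over the 21 arrays, the correlation between pairs of the 32 genes had a median of 0.92 (0.54 to 0.99) as deposited and 0.10 (-0.69 to 0.85) after quantile normalization. All pairs were taken over the same arrays, each with 1 scaling for all its genes, and the correlations are given as a description. The 34 other genes with a mean of 13 or more had a median log2 fold change of 0.26, against 0.36 for the 31 ribosomal protein genes in that range. The 135 other genes between 12 and 13 had a median of 0.20, and the 9528 below 9 had -0.04. After quantile normalization the other genes at 13 or more had a median of -0.05 (38 genes) and the ribosomal protein genes 0.02. Whether the array scale or the RNA content of the cells gave this shift was not tested.

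**Figure D3:**
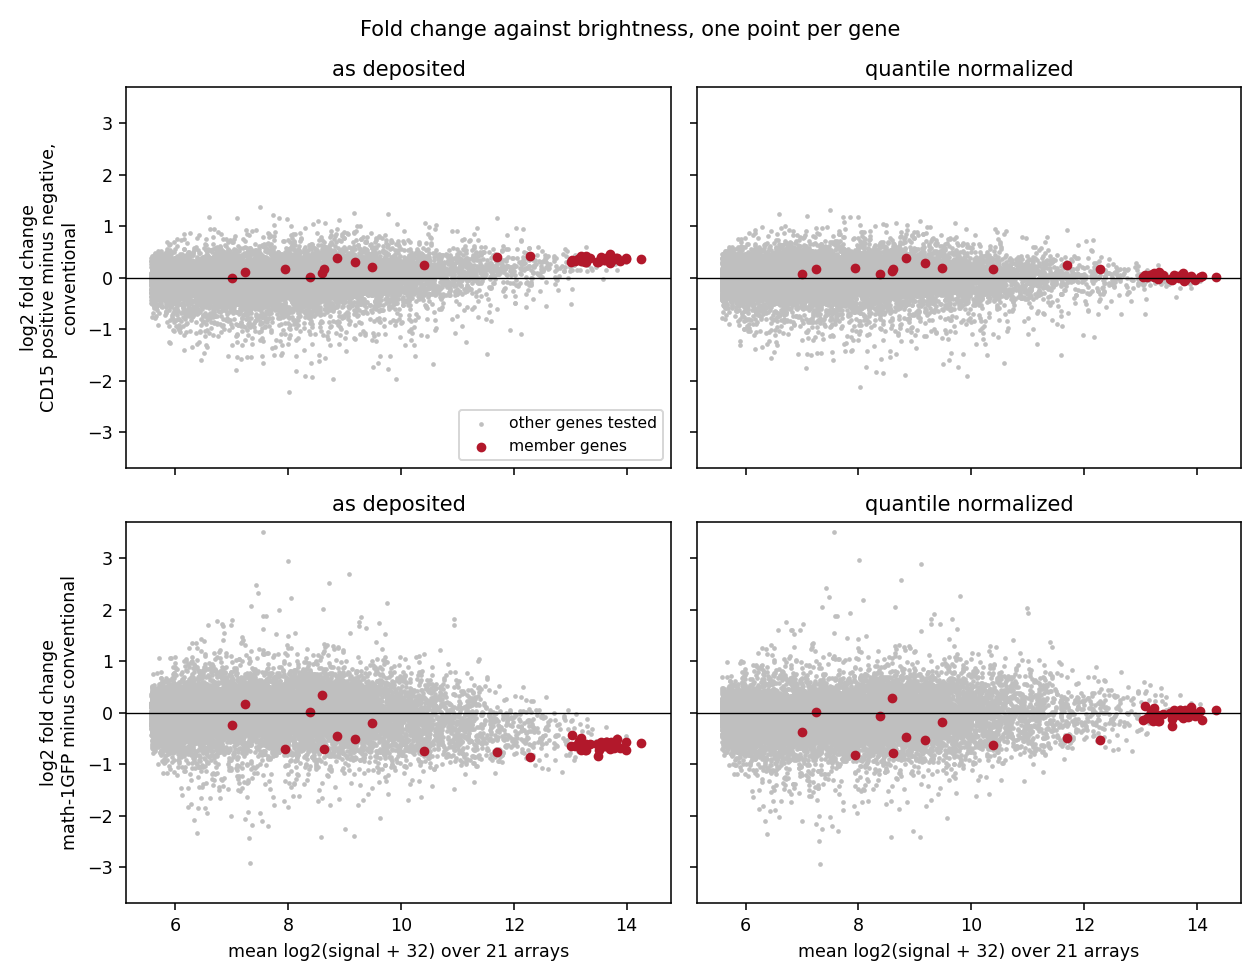
Log2 fold change (y axis) against mean log2(signal + 32) over the 21 arrays (x axis), one point per gene tested, for CD15 positive over negative cells of conventional tumours (top) and math-1GFP over conventional tumours (bottom). The cloud of other genes bends with brightness as deposited, and the bright ribosomal protein genes lie on the bend with medians of 0.36 and -0.61; after quantile normalization these are 0.02 and -0.03.

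In math-1GFP tumours the same comparison of CD15 positive with CD15 negative cells gave 0 limma calls among the 43 genes, against 0.0404% called over all genes (0.0242% after quantile normalization, again with 0 of the 43). The median log2 fold change was 0.17, with 39 of 43 above 0, and 0 genes had an unadjusted p under 0.05 (8.68% of all genes had). Rpl22l1 had the largest difference. Its signals were 3747, 4173, 4304 and 3727 in CD15 positive arrays 1, 5, 7 and 9, and 2673, 4620, 3454, 3122 and 2509 in CD15 negative arrays 2, 4, 6, 8 and 10. CD15 negative array 4 was the highest of all 9, so the groups overlapped, with a log2 fold change of 0.31 ± 0.17 (limma adjusted p = 0.65). Rps2 and Rps19 followed at 0.30 ± 0.18 and 0.25 ± 0.16 (adjusted p = 0.70 and 0.73). The test of the difference between the models called 0 of the 43 genes and 0% of all genes in the limma fit, under either scaling; 0 of the 43 had an unadjusted p under 0.05 (2.26% of all genes had). The median of the difference was -0.16, the smallest p-values were those of Rpl37 (-0.39), Rpl11 (-0.21) and Rpl22 (-0.22), and a smaller CD15 difference in math-1GFP tumours was not shown.

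The comparison of math-1GFP with conventional tumours, averaged over the CD15 fractions, gave the largest differences. Of the 43 genes 36 were called lower in math-1GFP tumours and 0 were called higher, with a median log2 fold change of -0.61 against -0.01 over all genes. Over all genes 39.2% were called, 18.7% higher and 20.5% lower. After quantile normalization 11 of the 43 were called lower and 0 higher, with a median of -0.06 against -0.07 over all genes. Of all genes 14.5% were called higher and 24.7% lower, so the share called lower among the 43 (25.6%) was near that of all genes. In CD15 positive cells alone 36 were called lower as deposited (12.2% of all genes), and in CD15 negative cells alone 28 were (10.5% of all genes). After quantile normalization these counts were 6 (14.3% of all genes) and 7 (12.7% of all genes). The 31 genes at 13 or more were all called lower as deposited, as were 26 of the 34 other genes of that brightness. For 8 genes no math-1GFP array overlapped a conventional array as deposited (Rpl10a, Rpl11, Rpl19, Rpl22, Rpl27, Rpl35, Rpl37 and Rps19bp1), and for 2 after quantile normalization (Rpl35 and Rps19bp1). These are 18.6% and 4.65% of the 43; over all genes 3.57% and 3.75% were lower in math-1GFP tumours without overlap.

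Of the 43 genes, 10 were called lower in math-1GFP tumours under both scalings: Rpl11, Rpl19, Rpl22, Rpl22l1, Rpl27a, Rpl35, Rpl37, Rps15, Rps19bp1 and Rps27l. This is 23.3% of them, against 18.5% of all genes, and the genes are described singly. Rpl35, a protein of the tunnel exit, measured 12206, 16507 and 21884 (lowest, median, highest) in conventional CD15 positive arrays and 11209, 12361 and 16840 in conventional CD15 negative arrays. In math-1GFP CD15 positive arrays 1, 5, 7 and 9 it measured 8113, 8897, 9081 and 7998, and in CD15 negative arrays 2, 4, 6, 8 and 10 it measured 7442, 10844, 7776, 8237 and 6232. Every math-1GFP array was below every conventional array, and the log2 fold change was -0.84 ± 0.12, or 1.80-fold lower (limma adjusted p = 1.08e-05). After quantile normalization the conventional arrays ran from 11705 to 14365 and the math-1GFP arrays from 10314 to 11641, again without overlap, with a log2 fold change of -0.25 ± 0.05 (adjusted p = 9.73e-04).

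Rpl22l1 was 1.81-fold lower in math-1GFP tumours as deposited, with a log2 fold change of -0.85 ± 0.11 (limma adjusted p = 7.82e-06). Its math-1GFP signals, given above, overlapped the conventional ones through CD15 positive array 7 (4304) and CD15 negative array 4 (4620), against a lowest conventional signal of 4282. After quantile normalization it was -0.52 ± 0.10 (adjusted p = 3.98e-04). Its relative Rpl22 had a log2 fold change of -0.72 ± 0.09 as deposited (adjusted p = 5.31e-06) and -0.17 ± 0.06 after quantile normalization (adjusted p = 0.040). These are values of the brightest Rpl22 probe set. Its dimmer probe sets had -0.48 ± 0.13 and 0.16 ± 0.15 as deposited. After quantile normalization they had -0.10 ± 0.10 and 0.28 ± 0.14 (limma adjusted p = 0.45 and 0.11 over probe sets). The brightest measured 7445, 8447, 8315 and 7677 in the math-1GFP CD15 positive arrays. In the CD15 negative arrays it measured 6370, 8761, 6891, 7347 and 5769, and all were below the lowest conventional signal of 9375. Whether Rpl22 and Rpl22l1 differ in their change was not tested.

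Rps27l measured 3047, 2313, 2635 and 2593 in math-1GFP CD15 positive arrays 1, 5, 7 and 9, and 2628, 2404, 2055, 2093 and 2234 in CD15 negative arrays 2, 4, 6, 8 and 10. Only array 1 exceeded the lowest conventional signal, 2817. The log2 fold change was -0.76 ± 0.10 (limma adjusted p = 1.01e-05) as deposited and -0.49 ± 0.10 (adjusted p = 4.56e-04) after quantile normalization. Its relative Rps27 had a dim probe set, with math-1GFP signals of 80.2 to 92.4 and conventional ones of 74.4 to 174. Rps27 had a log2 fold change of -0.23 ± 0.10 (limma adjusted p = 0.083) as deposited. It was called after quantile normalization, at -0.38 ± 0.11 (adjusted p = 0.0082), and in the paired fit (-0.22, adjusted p = 0.025). The paired fit takes differences between conventional title numbers out of the error, so its p-value for the models may be too small.

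Rpl37 and Rpl27a, of the large subunit, had dimmer probe sets and moved about as far under either scaling. Rpl37 measured 1528, 1860 and 2009 in conventional CD15 positive arrays and 1285, 1517 and 1895 in CD15 negative arrays. The math-1GFP CD15 positive arrays had 614, 987, 948 and 1248 and the CD15 negative arrays 997, 1154, 879, 1256 and 895, all below 1285. Its log2 fold change was -0.75 ± 0.11 as deposited and -0.63 ± 0.12 after quantile normalization (limma adjusted p = 2.59e-05 and 2.47e-04). Rpl27a measured 186 to 473 in conventional arrays and 117 to 209 in math-1GFP arrays, which overlapped, with log2 fold changes of -0.71 ± 0.14 and -0.83 ± 0.15 under the 2 scalings. Rps19bp1 encodes a partner of Rps19 and of the deacetylase Sirt1 rather than a ribosomal protein. It measured 379 to 552 in conventional arrays and 230 to 336 in math-1GFP arrays without overlap, with log2 fold changes of -0.70 ± 0.08 and -0.78 ± 0.08 (adjusted p = 1.21e-06 and 5e-07).

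The bright genes Rpl11, Rpl19 and Rps15 also stayed called after quantile normalization, at smaller sizes of -0.14 ± 0.05, -0.16 ± 0.05 and -0.16 ± 0.06. Other bright genes lost the call or turned: Rps4x, the X-linked protein of the small subunit, went from -0.52 ± 0.12 (limma adjusted p = 0.0024) to 0.11 ± 0.06 (adjusted p = 0.16). Rps29, the brightest of the 43 probe sets, measured 18931, 24339 and 38226 in conventional CD15 positive arrays, 16783, 18827 and 28301 in CD15 negative arrays, 14956 to 18621 in math-1GFP CD15 positive arrays and 10354 to 19881 in CD15 negative arrays. Its log2 fold change went from -0.59 ± 0.13 to 0.05 ± 0.05. Rps6, the target of the S6 kinases, had a dim probe set whose signals ran from 190 to 843 in math-1GFP and from 372 to 1409 in conventional arrays, with a log2 fold change of -0.52 ± 0.30 (adjusted p = 0.17). Besides Rps6 and Rps27, the genes not called as deposited were Rpl12, Rpl14, Rpl39, Rpl7l1 and Rps25, all with a mean log2 value below 12. When every array was centred on the median of the 43 genes, 0 were called lower and 6 higher in math-1GFP tumours, but 75.7% of all genes were then called higher too.

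**Figure D4:**
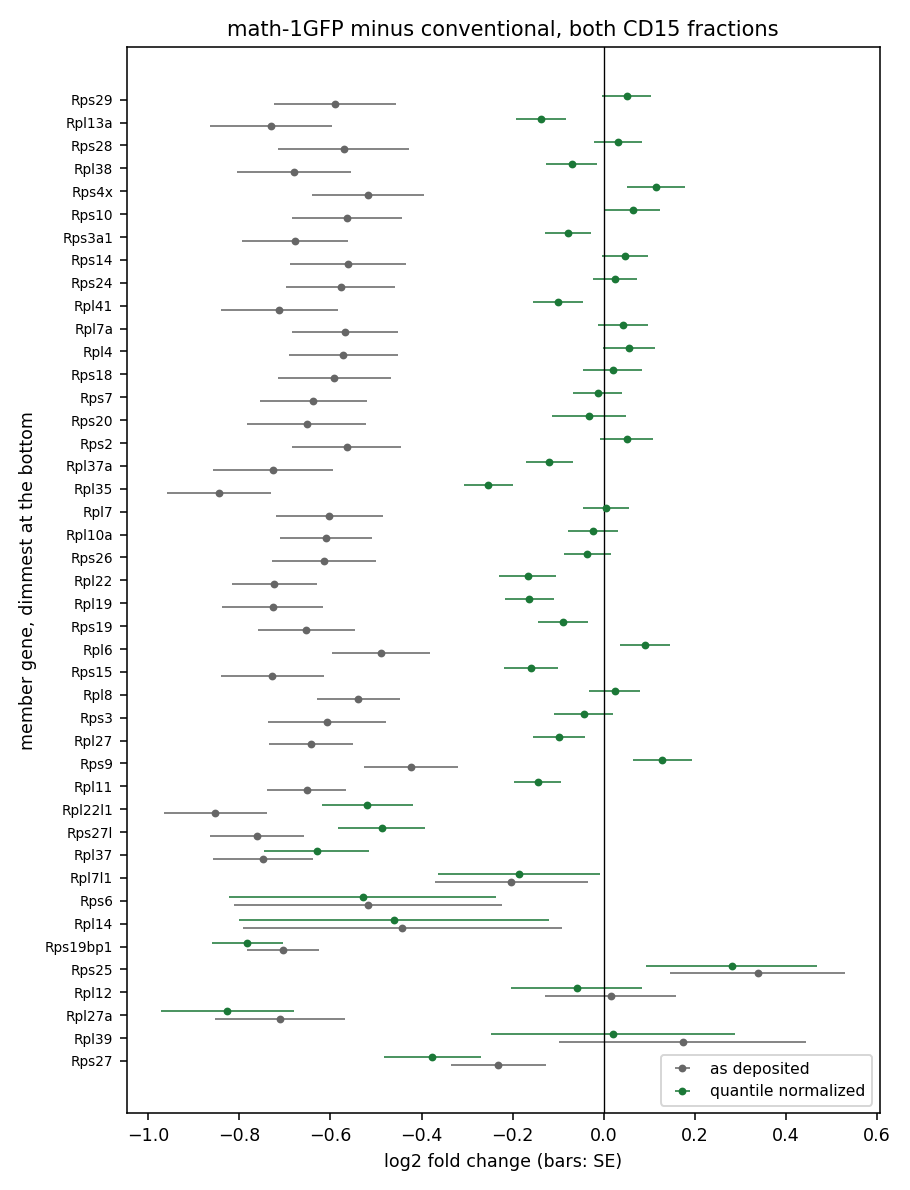
Log2 fold change of math-1GFP over conventional tumours (x axis; bars are SE) for each of the 43 tested genes (y axis, brightest at the top), as deposited and after quantile normalization. The bright genes lie between -0.85 and -0.42 as deposited and mostly near 0 after quantile normalization, whereas Rpl22l1, Rps27l, Rpl37, Rps19bp1 and Rpl27a, and the uncalled Rps6 and Rpl14, lie below -0.4 under either scaling.

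The promoters of the genes were compared for letters that the rule did not use. The RefSeq promoters of build GRCm38.p6, from 250 bases before to 50 after each annotated start, held an entry for 41 of the 47 genes, 7 of them with several starts. Each motif was searched on both strands, and a feature counted for a gene if any of its starts held it. CCGGAAG, bound by ETS factors, was found in 19 of 41 (46.3%) against 9.93% of the promoters of 27025 genes. AAGATGG, the YY1 motif, was in 19.5% against 7.28%, the E-box CACGTG in 9.76% against 8.09%, and the TATA box TATAAA in 12.2% against 15.7%. A run of 8 or more C or T that touched the 10 bases on either side of the start, on the gene's strand, was in 19 of 41 (46.3%) against 15.8%. The ETS letters and the run were both found in 11 of the 41 genes, for Rpl19 at different starts, and neither in 14. Different motifs did not overlap in the windows printed, while the 2 TATAAA matches of Rpl22l1, on opposite strands, share 2 bases. A match is a description of the letters and not a site of binding. The stretches from 40 bases before the start to 20 after are shown for the 7 genes that were called lower in math-1GFP tumours under both scalings and have 1 annotated start. Capitals mark the motifs and pyrimidine runs.
Rpl35, chr2:39005112-39005171, minus strand: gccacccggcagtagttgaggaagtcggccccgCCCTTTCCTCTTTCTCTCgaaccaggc
Rpl27a, chr7:109519155-109519214, plus strand: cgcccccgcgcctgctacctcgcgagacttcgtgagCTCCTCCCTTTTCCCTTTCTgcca
Rpl22l1, chr3:28805468-28805527, plus strand: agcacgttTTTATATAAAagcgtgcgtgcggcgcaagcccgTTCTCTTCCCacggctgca
Rpl11, chr4:136053374-136053433, minus strand: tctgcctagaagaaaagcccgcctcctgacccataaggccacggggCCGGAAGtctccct
Rpl37, chr15:5116573-5116632, plus strand: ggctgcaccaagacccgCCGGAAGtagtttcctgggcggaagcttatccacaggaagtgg
Rps15, chr10:80292391-80292450, plus strand: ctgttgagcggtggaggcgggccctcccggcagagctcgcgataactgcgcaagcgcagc
Rps19bp1, chr15:80264287-80264346, minus strand: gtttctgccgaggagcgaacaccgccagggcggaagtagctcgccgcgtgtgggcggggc
In these stretches Rpl35 and Rpl27a carry a pyrimidine run over the start, Rpl22l1 a run just after the start and a TATA box before it, and Rpl11 and Rpl37 the ETS letters. Rpl35 and Rpl27a hold the ETS letters as well, farther upstream than the stretch printed. Rps15 and Rps19bp1 hold neither feature where it was searched. Among the 3 genes with several starts, which are not printed, Rps27l holds both features at the same start and Rpl22 neither. Rpl19 holds the ETS letters at one start and the run at another.

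The brightest probe set stood for each gene, and the other probe sets did not always follow it. Of the 94 probe sets past the filter, 62 had a mean log2 value of 12 or more. Among these, 61 were called lower in math-1GFP tumours as deposited (15.8% of all probe sets were) and 15 after quantile normalization (19.3% of all probe sets). The 23 probe sets with a mean below 9 had a median near 0 in that comparison, at 0.01. In the CD15 comparison the spread between probe sets of a gene was widest for Rpl41 (4 probe sets, -0.24 to 0.50), Rps10 (6 probe sets, -0.17 to 0.44) and Rpl22 (3 probe sets, -0.16 to 0.42). A dimmer probe set of Rps9 was higher in math-1GFP tumours (2.32 ± 0.66, adjusted p = 0.0075 over probe sets) while the brightest was lower (-0.42 ± 0.10). Dimmer probe sets of Rps20 and Rps18 were likewise higher (0.84 ± 0.14 and 0.65 ± 0.13). Over all probe sets 26.8% were called higher. The second probe set of Rps3, whose protein also takes part in DNA repair, was lower as well, with -1.45 ± 0.19 beside -0.61 ± 0.13 for the first. Ribosomal protein genes have many processed pseudogenes, 40 of the 102 probe sets carry the suffix for probes that may hybridise to other transcripts, and signal from such copies cannot be told apart here. A further 109 probe sets listed a ribosomal protein gene together with other genes and were not assigned. Of these, 104 passed the filter, with medians of 0.35 for CD15 in conventional tumours and -0.64 between models as deposited, and 0.03 and -0.11 after quantile normalization.

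Genes that build or assist ribosomes were compared as lists of known function. Ribosomal proteins whose symbols fall outside the rule gave values near those of the 43 genes: Fau, Rplp0, Rplp2 and Rpsa, 4 measured of 8 listed, had CD15 differences of 0.37 to 0.40 in conventional tumours, none called, with a median of 0.39 as deposited and 0.056 after quantile normalization. The 38 genes listed as assembly factors of the nucleolus were measured in full, with similar medians under both scalings. The list also holds Rrn3, an initiation factor of RNA polymerase I. Their median was 0.25 as deposited, with 37 of 38 above 0 and 4 called higher (3.05% of all genes), and 0.22 after quantile normalization, with 38 of 38 above 0 and 1 called higher (2.63% of all genes). Gar1, a protein of the particles that modify ribosomal RNA, rose by 0.40 ± 0.10 as deposited and 0.34 ± 0.10 after quantile normalization (limma adjusted p = 0.020 and 0.042). Npm1 (nucleophosmin, which escorts ribosomal particles) had 0.51 ± 0.14 (adjusted p = 0.027) as deposited and 0.24 ± 0.12 after quantile normalization (adjusted p = 0.26). Nhp2 and Ncl (nucleolin) were called as deposited, at 0.47 ± 0.14 and 0.37 ± 0.11. Between models the assembly factors had a median of -0.14 under either scaling, with 12 called lower and 1 higher as deposited (20.5% and 18.7% of all genes) and 10 lower and 2 higher after quantile normalization (24.7% and 14.5% of all genes).

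The elongation and poly(A)-binding factors, 9 measured of 10, followed the ribosomal proteins, with a CD15 median of 0.31 as deposited and 0.05 after quantile normalization. Eef1d and Eif5a rose as deposited (0.59 ± 0.16 and 0.40 ± 0.12, limma adjusted p = 0.026 and 0.038) and 0 were called after quantile normalization. Between models 6 of the 9 were called lower and 0 higher as deposited, and 3 lower and 4 higher after quantile normalization, beside the same shares of all genes. The 26 measured initiation factors had CD15 medians of 0.16 and 0.00 under the 2 scalings, with 1 called as deposited, Eif1ax (0.41 ± 0.09, adjusted p = 0.0084). RNA polymerase I makes the large ribosomal RNAs. The 13 measured genes of its subunits and initiation factors (Ubtf and Taf1 genes) had CD15 medians of -0.00 and 0.08 with 0 called. Between models, 7 of these 13 were called lower as deposited (20.5% of all genes) and 9 after quantile normalization (24.7% of all genes), with 1 higher under either scaling and medians of -0.37 and -0.39. The mitotic markers moved with CD15 beside the assembly factors, with mean log2 values of 10.17 to 10.63 in conventional CD15 positive and 8.98 to 9.99 in CD15 negative arrays. The microglial and macrophage markers differed between models, with mean log2 values of 5.81 to 10.00 in conventional and 5.69 to 7.32 in math-1GFP arrays. Their part in the differences of the ribosomal protein genes was not tested.

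**Figure D5:**
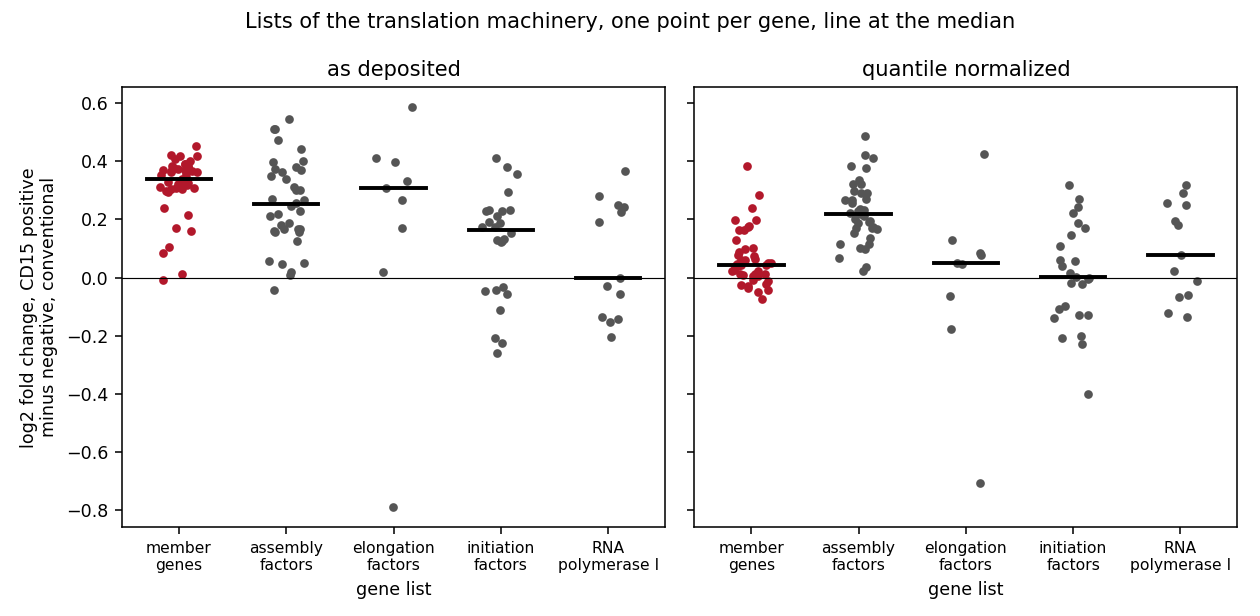
Log2 fold change of CD15 positive over CD15 negative cells of conventional tumours (y axis), one point per gene, for the 43 tested genes and 4 lists of the translation machinery (x axis), with a line at each median. The median of the ribosomal protein genes goes from 0.34 as deposited to 0.04 after quantile normalization, and that of the assembly factors from 0.25 to 0.22.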

How the data were processed

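Probe set intensities of 21 arrays were used as deposited by the authors, on a linear scale. The software behind them is not named in the labels or files. Judged by the values, a trimmed mean (2% removed at each end) was 150.0 on the unnumbered conventional CD15 positive array. The other arrays were taken to share this scale. Signals became log2(signal + 32). Left out were 64 control probe sets, 932 with several and 9160 with no listed symbol, and those below the 40th percentile of mean log2 value (a signal of about 15.5). Each gene was represented by its brightest probe set. The fit had 4 group means and 17 residual degrees of freedom (limma 3.58.1, R 4.3.3), with two-sided moderated p-values, Benjamini-Hochberg adjustment over all genes and a threshold of 0.05. The members and gene lists were chosen with earlier results of these data known. Named genes were those of smallest p in each comparison (up to 8 called, or 3), a list by role, the brightest, the dimmest and those with the widest spread between probe sets; some are left out for length, and others are named as part of a count. Among conventional arrays 2 to 6, same-numbered ones deviated together (r = 0.58 to 0.76 in 5 pairs, -0.56 to 0.40 otherwise). The numbers were therefore taken to pair them. The 2 unnumbered arrays had r = 0.72 with each other, and the CD15 positive one had 0.48 with CD15 negative array 6. The main fit did not use the pairs. In the model comparison a block on the title number removes differences between numbers from the error, so its p-values may be too small. No 2 arrays were identical. The fit was tested on simulated data with independent noise for each gene and array. Those data held no scale shifts or pairs, so the test does not bear on scaling or pairing. The number of arrays limits the precision. Alternatives covered scaling, pseudocount, filter, probe set choice, blocks, subsets and leaving out each array.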

Additional observations from a re-analysis of the deposited data

Results flagged for a closer look

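A group of 4 to 6 arrays was marked where its highest or lowest array stood far from the rest by Dixon's criterion. Of 104 groups examined (the genes named by rule, the mean of the 43 genes and their share of signal), 2 were marked, and chance marks about 1 in 20. The log2 value of Rpl11 in conventional CD15 negative cells was 13.46 on the unnumbered array, with the nearest of the others at 13.13. The log2 value of Rps3 in math-1GFP CD15 positive cells was 12.68 on array 9, with the nearest at 12.92 and the remaining arrays close to that value.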

How the results depend on the processing

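The counts among the 43 genes depended on the scaling. In the CD15 comparison of conventional tumours, 1 gene was called as reported. The number was 0 with quantile normalization, the average over probe sets, no s or x suffix probe sets (38 genes), the 2 conventional groups alone, or within either set of arrays that resemble each other (2 to 5, and the unnumbered arrays with 6). Over all genes these settings called 325, 341, 355, 265, 219 and 0 higher, in that order, and the main fit 377. Of the 43, 2 were called with trend and robust estimation or the replicate block, and 3 with a pseudocount of 100. The number was 4 with those sets as a block, and 6 with centring on the all-gene median. Over all genes 416, 452, 454, 524 and 626 were called higher in these 5 settings, in that order. Leaving out 1 array called 0 to 7 of the 43. It called 0 without CD15 positive 1 or 2 or CD15 negative 2, 3 or 5. It called 3 without CD15 positive 6, 5 without CD15 positive 3 and 7 without CD15 negative 1. The median of 0.34 was 0.043 with quantile normalization and 0.27 to 0.42 without 1 array. Between models, 36 genes were called lower as reported and 11 with quantile normalization. With every probe set counted, 69 of 94 were called lower and 5 higher (15.8% and 26.8% of all probe sets). The number called higher was 1 instead of 0 with the mean of probe sets, without the suffix probe sets, with array weights, with the replicate block and with numbered arrays only. Over all genes these settings called 3022, 2395, 2983, 2606 and 2263 higher, in that order, against 2309 as reported. The median of -0.61 was -0.060 with quantile normalization.

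These alternatives were added after seeing the data. Quantile normalization with the replicate block gave medians of 0.056 (CD15) and -0.057 (models). It called 0 of the 43 genes for CD15, and 9 lower and 1 higher between models. Of all 12377 genes it called 383 higher and 574 lower for CD15, and 3546 lower and 2131 higher between models. Quantile normalization within the sets gave 0 calls among the 43 genes and medians of 0.053 and 0.017. Over all genes it called 215 higher and 329 lower within arrays 2 to 5, and 0 within the other set. In CD15 positive and CD15 negative cells alone it called 6 and 7 of the 43 lower in math-1GFP (medians -0.071 and -0.073). Of all genes, 1771 and 1566 were then called lower. Centring on the 43 genes gave CD15 and model medians of -0.0025 and 0.049. It called 0 of the 43 for CD15, and 0 lower and 6 higher between models. Of all 12367 genes it called 14 higher and 2113 lower for CD15, and 9367 higher and 91 lower between models. The median of all genes moved to -0.36 and 0.65.

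Directions changed for genes near 0 and for genes with a large difference as deposited. Between models, Rpl8, Rps2, Rpl7, Rps4x, Rps28, Rps29 and Rps10 had -0.60 to -0.52 as deposited and were called. Of the 31 genes at 13 or more, 0 were above 0 between models as deposited and 14 after quantile normalization. With quantile normalization the model difference became 0.024 for Rpl8, 0.050 for Rps2, 0.0055 for Rpl7, 0.11 for Rps4x, 0.032 for Rps28, 0.050 for Rps29 and 0.064 for Rps10, and the CD15 difference -0.051 for Rpl35, -0.029 for Rpl7 and 0.075 for Rps27. Rps27 was also 0.067 with centring on the all-gene median, 0.045 with array weights, 0.085 with the replicate block or numbered arrays only, 0.066 within arrays 2 to 5, and -0.13 to 0.064 without 1 array. Rpl39 was -0.30 within the unnumbered arrays and number 6, and -0.10 to 0.36 without 1 array. Rpl41 was -0.12 without the suffix probe sets, and Rpl7l1 between models 0.025 without math-1GFP arrays 1 and 2. None of these turned values was called. Among the genes named by rule, the replicate block changed the call of Rps27l (CD15) and Rps27 (models), as given, and of no other. Quantile normalization gives every array the same set of values, and the cause of these changes was not tested.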
